A study of Mus musculus with 7 samples.

Results

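Reelin, its receptors and the proteins that carry its signal into the neuron were examined as 8 genes of the 25467 with counts in RNA from the medial prefrontal cortex (mPFC) of mice. The genes are Reln, the receptor genes Vldlr and Lrp8, the adaptor gene Dab1, the kinase gene Fyn, the adaptor genes Crk and Crkl, and Pafah1b1. They were picked by name for their place in the pathway, with their difference between the groups already known. That difference is therefore a description. Where calls over all genes take in the members, they are given only beside the share of all genes called.

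The study compared 4 libraries from mice labelled as given recombinant human thrombospondin 1 (rhTSP1, called TSP1 here), a secreted matrix protein that astrocytes release, with 3 libraries from mice labelled PBS, the saline buffer. Each of the 7 libraries came from a different mouse. Strain, age, dose, route and time of treatment are not stated in the labels used here, which name no genetic change in either group. Library totals ran from 15090336 to 20755167 counts.

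Reelin is a large secreted glycoprotein that guides neuron migration and layering in the developing cortex, where Cajal-Retzius cells make it. In the adult cortex it comes mainly from GABAergic interneurons, and it acts on dendritic spines and on NMDA receptor function. It binds the lipoprotein receptors VLDLR and ApoER2 (the product of Lrp8), which thrombospondin 1 also binds, and this clusters the receptors so that Fyn and Src phosphorylate the adaptor Dab1. Phosphorylated Dab1 then recruits Crk and CrkL, activates PI3 kinase and Akt, and binds Lis1, the product of Pafah1b1, which regulates the microtubule motor dynein.

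The promoters of Reln and Vldlr are shown because these were the members whose libraries separated by group. All 8 members matched the RefSeq promoter table (GRCm38.p6), and each window below holds the 250 bases before the annotated start, read 5′ to 3′ on the strand of the gene. The Reln window is chr5:22344706-22344955 on the minus strand, and the Vldlr window is chr19:27216234-27216483 on the plus strand. Capitals mark GGGCGG, the core of a GC box, searched on both strands.
Reln: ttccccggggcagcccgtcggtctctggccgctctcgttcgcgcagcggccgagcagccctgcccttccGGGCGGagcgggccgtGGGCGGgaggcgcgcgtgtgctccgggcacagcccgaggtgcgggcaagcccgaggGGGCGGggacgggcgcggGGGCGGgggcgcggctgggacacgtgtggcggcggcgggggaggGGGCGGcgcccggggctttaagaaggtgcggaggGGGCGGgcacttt
Vldlr: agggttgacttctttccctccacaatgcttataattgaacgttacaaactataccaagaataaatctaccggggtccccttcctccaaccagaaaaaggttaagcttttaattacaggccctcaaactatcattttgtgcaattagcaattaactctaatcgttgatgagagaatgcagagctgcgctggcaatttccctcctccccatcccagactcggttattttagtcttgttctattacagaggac
The Reln window held 6 GGGCGG matches, 37 CpG dinucleotides and 80% G and C bases. Of 32851 RefSeq promoter windows of the same length, 32.7% held GGGCGG and 0.886% held it at least 6 times, and the median window had 52.4% G and C bases and 6 CpG dinucleotides. The Reln window also held 1 E-box of the form CACGTG, which 6.02% of the windows held on either strand and which overlapped no GGGCGG match. The Vldlr window held 41.6% G and C bases, 5 CpG dinucleotides and 0 GGGCGG matches, and a second annotated Vldlr start, 536 bases further into the gene, had 66.4% G and C bases, 18 CpG dinucleotides and 1 match in its window. Neither printed window held TATAAA, which 12.4% of the windows held on either strand. The printed windows were thus unlike in base content, with the second Vldlr window between them, and letter matches are descriptions, not binding sites.

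Reln (ENSMUSG00000042453.14), the ligand gene, lies on the minus strand of chromosome 5 from 21884454 to 22344702 (GRCm38). Its level, in CPM (counts per 1000000 library counts, with TMM scaling between libraries), was 83.2, 91.7, 81.0 and 86.9 in TSP1 replicates 1 to 4 and 54.0, 63.2 and 67.4 in PBS replicates 1 to 3. All 4 TSP1 libraries were above all 3 PBS libraries, and the PBS libraries were the more scattered. The means were 85.7 ± 4.69 CPM (SD, n = 4) with TSP1 and 61.5 ± 6.81 CPM (SD, n = 3) with PBS. The fitted log2 fold change was 0.48 (SE 0.08), a level 1.39-fold higher in the TSP1 libraries. Between 1068 and 1704 reads stood behind each value, so the counting error averaged 2.74% of the count, below the coefficient of variation between libraries of 5.47% with TSP1 and 11.1% with PBS. The log2 fold change lay between 0.39 and 0.55 when any library was left out, the lowest without PBS replicate 1, which had the least Reln.

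Reln has 23738 bases of annotated exon. With each library's trend in exon length and GC content removed, its log2 fold change was 0.40. Of its exons, 246 bases overlap Gm10475 on the opposite strand, which had 5 counts in all libraries against 9337 for Reln.

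**Figure D1:**
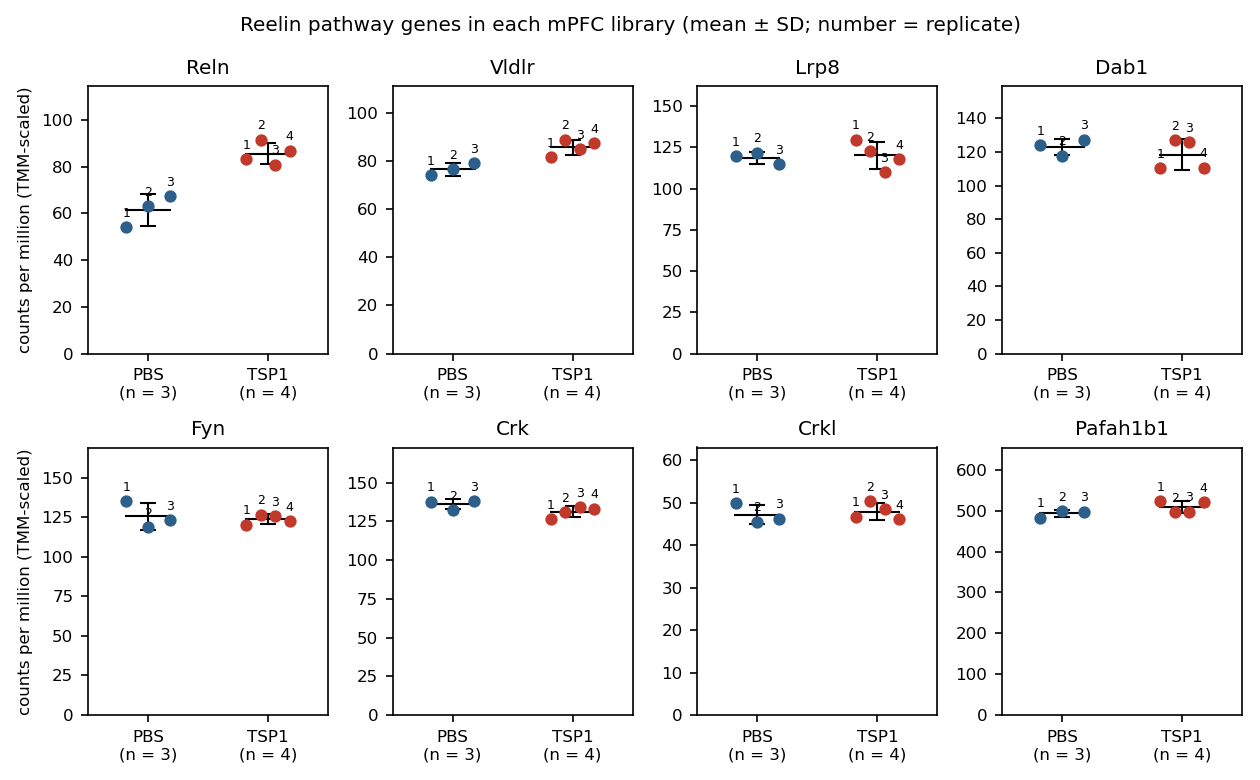
Level of each of the 8 genes in CPM (vertical axes, one panel per gene) in the 4 TSP1 and 3 PBS libraries, with a point per library and the mean ± SD of each group. The TSP1 points lie above all PBS points for Reln (81.0 to 91.7 against 54.0 to 67.4 CPM) and Vldlr, and the groups overlap for the other 6 genes.

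Vldlr (ENSMUSG00000024924.14) encodes the very low density lipoprotein receptor, which binds reelin and lies at chromosome 19, 27216484 to 27254231, on the plus strand. It was at 81.5, 88.8, 84.7 and 87.3 CPM in TSP1 replicates 1 to 4 and at 73.9, 76.4 and 79.0 CPM in PBS replicates 1 to 3. These groups did not overlap either, but the lowest TSP1 library was only slightly above the highest PBS library. The means were 85.6 ± 3.20 CPM (SD, n = 4) and 76.5 ± 2.56 CPM (SD, n = 3), and the log2 fold change was 0.16 (SE 0.06). With the length and GC trends removed it was 0.10, and it was 0.14 to 0.19 with any library left out.

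Lrp8 (ENSMUSG00000028613.14), at chromosome 4, 107802261 to 107876840, plus strand, encodes ApoER2, the receptor through which reelin acts on synapses. Its levels were 129.8, 123, 110.1 and 118 CPM with TSP1 and 119.5, 122 and 115 CPM with PBS. The PBS libraries lay within the range of the TSP1 libraries. The log2 fold change was 0.02 (SE 0.07), and it was -0.04 with the length and GC trends removed. The ratio of Vldlr to Lrp8 overlapped between the groups, at 0.628 to 0.770 with TSP1 and 0.618 to 0.689 with PBS.

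Dab1 (ENSMUSG00000028519.16), at chromosome 4, 103619359 to 104744844, plus strand, encodes the adaptor that docks on the receptors' tails. It was at 110.2, 127, 126 and 111 CPM with TSP1 and at 124, 118 and 127 CPM with PBS. The log2 fold change was -0.06 (SE 0.07). The 2 groups overlapped, with TSP1 replicates 1 and 4 lowest. Fyn (ENSMUSG00000019843.14), at chromosome 10, 39368855 to 39565381, plus strand, encodes a Src family kinase that phosphorylates Dab1. It was at 120.2, 127, 126 and 123 CPM with TSP1 and at 135, 119 and 123 CPM with PBS. Those groups overlapped too, and the log2 fold change was -0.02 (SE 0.06).

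Crk (ENSMUSG00000017776.15), at chromosome 11, 75679259 to 75706908, plus strand, and Crkl (ENSMUSG00000006134.3), at chromosome 16, 17451987 to 17487434, plus strand, encode related adaptors that pass the signal from Dab1 to the small GTPase Rap1. Crk was at 126, 131, 134 and 133 CPM with TSP1 and at 138, 132 and 138 CPM with PBS. Crkl was at 46.8, 50.4, 48.4 and 46.1 CPM with TSP1 and at 49.9, 45.6 and 46.2 CPM with PBS. Both overlapped between the groups. Their log2 fold changes were -0.05 (SE 0.06) for Crk and 0.02 (SE 0.07) for Crkl, and the ratio of Crk to Crkl overlapped as well, at 2.60 to 2.89 with TSP1 and 2.76 to 2.99 with PBS.

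Pafah1b1 (ENSMUSG00000020745.15), at chromosome 11, 74673949 to 74724670, minus strand, encodes Lis1, named for lissencephaly, the smooth brain that results from its mutation in people. It was at 524, 497, 498 and 521 CPM with TSP1 and at 483, 499 and 498 CPM with PBS. PBS replicates 2 and 3 lay inside the TSP1 range. The log2 fold change was 0.05 (SE 0.06), and -0.02 with the length and GC trends removed.

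The 8 members did not share a direction. Their log2 fold changes had a median of 0.02, against 0.00 over all 17211 genes tested, and 5 of 8 were above 0. In edgeR's quasi-likelihood test, 0 of the 8 passed an adjusted p of 0.05, where the share over all genes was 0%. DESeq2, which called 0.541% of the genes it tested, and edgeR's exact test, which called 0.494%, each called 1 member, Reln, and limma-voom, which called 0%, called none of them. At an unadjusted p under 0.05 stood 2 members, Reln and Vldlr, beside 9.65% of all genes, and with the length and GC trends removed Vldlr was no longer among them (p 0.118 in that fit of edgeR). The same 2 had groups that did not overlap, beside 10.1% of all genes, or 4.83% with TSP1 above PBS, as in both, and 5.26% with PBS above TSP1. Since the members were chosen with these differences known, nothing is read from these counts.

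**Figure D2:**
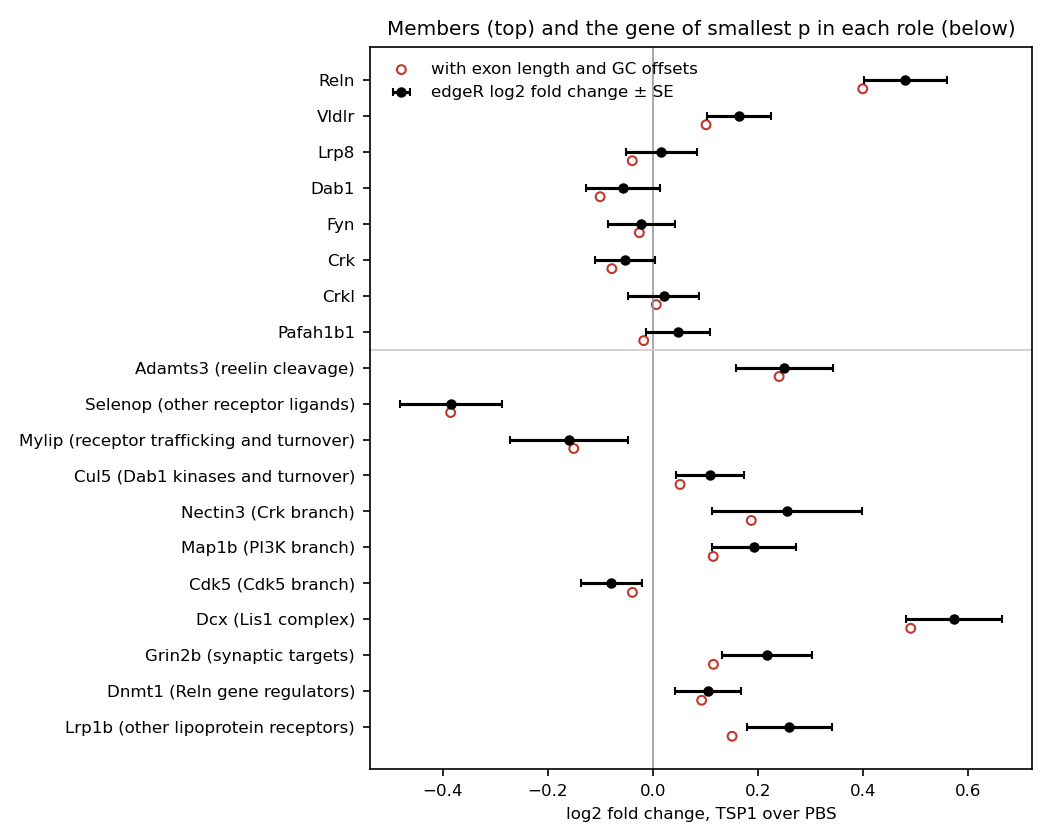
Log2 fold change of TSP1 over PBS (horizontal axis) for the 8 members (top) and for the gene of smallest p in each role of the wider pathway and among the other lipoprotein receptors (below), with filled points and bars for the edgeR value ± SE and open circles for the value with exon length and GC trends removed. Reln (0.48) and Dcx (0.57) lie farthest to the right, and 6 of the 8 members lie within 0.06 of 0.

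Compared per kilobase of annotated exon, the levels of the 8 genes spanned a wide range. Pafah1b1 was highest, at a mean of 52.3 CPM per kilobase over the 7 libraries (range 50.3 to 54.5). Fyn, at 28.5 (27.2 to 31.0), and Crk, at 28.2 (26.7 to 29.2), came next, and their ranges overlapped, so their order is not distinguished. Below them came Dab1 at 15.2 (13.9 to 16.1), Lrp8 at 11.4 (10.5 to 12.3) and Crkl at 9.45 (9.04 to 10), with no overlap between these neighbours. Vldlr, at 8.11 CPM per kilobase (7.34 to 8.82), and Reln, at 3.17 (2.28 to 3.86), were lowest. Reln thus had the lowest level per length of the 8 members, also where only the longest transcript's length was used (6.44 CPM per kilobase). By that length the mean of Vldlr stood above that of Crkl with overlapping ranges (9.27 to 11.1 and 9.04 to 10), and Fyn (33.3 to 37.9) and Crk (29.5 to 32.2) no longer overlapped, while 6 of the 8 members had the same rank.

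**Figure D3:**
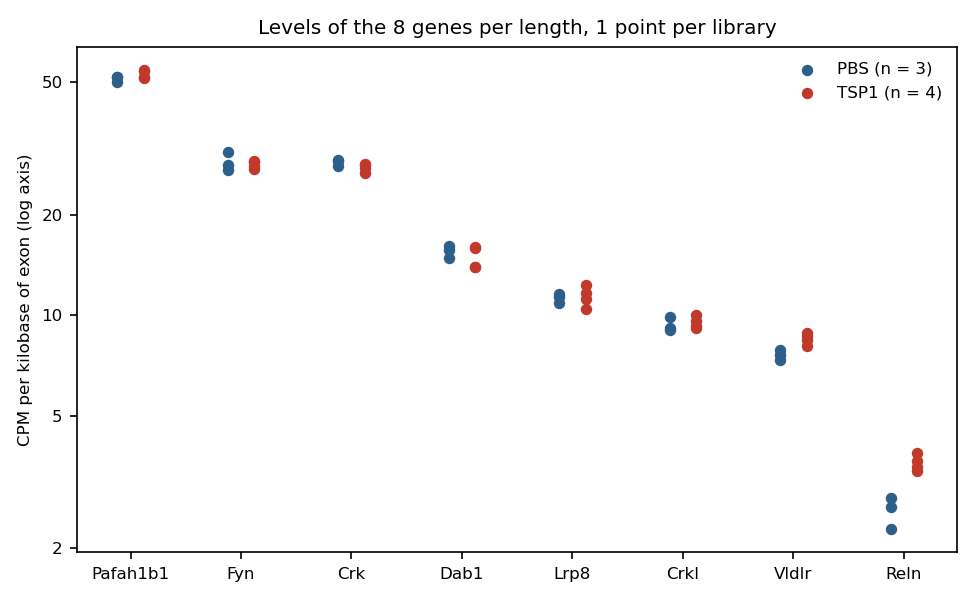
Level per kilobase of annotated exon in CPM (log axis) for the 8 genes in order of their mean, with a point for each of the 7 libraries, coloured by group. Pafah1b1 is highest at a mean of 52.3, Fyn and Crk overlap near 28, and Reln is lowest at 3.17, where the TSP1 libraries are above the PBS libraries.

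Beyond the members, a list of 67 further genes of the pathway was tested, chosen by role with earlier results of these data known. All 67 passed the filter on low counts, 31 had log2 fold changes above 0 and 36 below, and the median was -0.01. In edgeR's quasi-likelihood test 0 of the 67 passed an adjusted p of 0.05. At an unadjusted p under 0.05 were 9 genes, or 13.4%, beside 9.65% of all genes. Of these, 6 were higher with TSP1 (4.21% of all genes) and 3 were lower (5.44% of all genes). DESeq2 called 3 of the 67, Dcx higher (0.131% of all genes) and Clu and Selenop lower (0.411%), the exact test called Dcx, and limma-voom called 0. Groups did not overlap for 9 of the 67 (10.1% of all genes), 5 with TSP1 above PBS and 4 with PBS above TSP1.

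Upstream of the receptors, 3 of 6 genes for reelin cleavage were above 0, with Adamts3, which encodes a protease that cleaves and inactivates reelin, at the smallest p. Adamts3 was at 16.2, 17.2, 16.6 and 17.8 CPM with TSP1 and at 13.4, 15.3 and 14.1 CPM with PBS. The groups did not overlap, and the log2 fold change of 0.25 (SE 0.09) had an adjusted p of 0.403 in edgeR's quasi-likelihood test.

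Among 6 genes for other ligands of these receptors, 4 were below 0. Selenop encodes the selenium carrier selenoprotein P, a ligand of ApoER2. It was at 175, 214, 236 and 198 CPM with TSP1 and at 299, 247 and 261 CPM with PBS. All 4 TSP1 libraries were below all PBS libraries, with a log2 fold change of -0.38 (SE 0.10) and an edgeR adjusted p of 0.246. Clu, which encodes the secreted chaperone clusterin, another receptor ligand, had a log2 fold change of -0.27 (SE 0.07) and an edgeR adjusted p of 0.256, with no overlap. Both genes are abundant in astrocytes or other non-neuronal cells, and 5 of 6 astrocyte markers were also below 0. The defining astrocyte marker Aqp4 overlapped, at 98.2 to 136 CPM with TSP1 and 107 to 132 CPM with PBS, as did the sum of the 6, at 1850 to 2378 CPM with TSP1 and 2321 to 2560 CPM with PBS. Of the 6, Aldoc and S100b had groups that did not overlap, both with PBS above TSP1. Aldoc was at 756 to 976 CPM with TSP1 and 1011 to 1104 CPM with PBS, a difference of -0.31 on the log2 scale. S100b was at 62.5 to 81.2 CPM and 89.3 to 103 CPM, a difference of -0.42, and DESeq2 and the exact test called it. Whether astrocyte content had a part in Clu or Selenop was not tested. In bulk tissue, fewer cells of a type and less RNA per cell cannot be told apart.

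Closer to the receptors and Dab1, the smallest p values belonged to genes whose groups overlapped. Of 4 genes for receptor trafficking and turnover, 3 were below 0, and Mylip, which encodes a ubiquitin ligase that marks VLDLR and ApoER2 for degradation, had a log2 fold change of -0.16 (SE 0.11) with an edgeR adjusted p of 0.697. Of 5 genes for Dab1 kinases and turnover, 2 were above 0. Cul5, whose ubiquitin ligase degrades phosphorylated Dab1, had a log2 fold change of 0.11 (SE 0.07) with an edgeR adjusted p of 0.638. In the Crk branch 5 of 11 genes were above 0, and Nectin3, a cell adhesion gene, had a log2 fold change of 0.26 (SE 0.14) with an edgeR adjusted p of 0.622.

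Farther downstream, 7 of 13 PI3 kinase branch genes were above 0 and the microtubule protein gene Map1b had the smallest p. It was at 1270, 1068, 1022 and 1168 CPM with TSP1 and at 981, 996 and 993 CPM with PBS. The groups did not overlap, at a log2 fold change of 0.19 (SE 0.08) and an edgeR adjusted p of 0.470. Akt2, a kinase of the same branch, had a log2 fold change of -0.15 (SE 0.07) and overlapped. All 3 Cdk5 branch genes were below 0, and Cdk5, a kinase that acts beside reelin in neuron positioning, had a log2 fold change of -0.08 (SE 0.06) with an edgeR adjusted p of 0.706. Its groups did not overlap, with PBS above TSP1.

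The gene of smallest p in the wider list belonged to the Lis1 complex. Dcx, which encodes the microtubule protein doublecortin of young neurons, was at 78.2, 70.9, 71.5 and 79.4 CPM with TSP1 and at 58.7, 43.7 and 48.5 CPM with PBS. Its groups were well apart, and its log2 fold change was 0.57 (SE 0.09), with an edgeR adjusted p of 0.112. Migrating neuroblasts carry Dcx, and 5 of 6 of their other markers were above 0. Their defining marker Dlx2 was at 3.83 to 11.1 CPM with TSP1 and 3.31 to 9.08 CPM with PBS, and the 6 summed to 30.8 to 86.2 CPM with TSP1 and 31.0 to 73.6 CPM with PBS. TSP1 replicate 4 had the highest sum and the highest Dcx, and TSP1 replicate 1 had the lowest sum and the next highest Dcx. The part of these cells in the Dcx difference was not tested. The dynein genes Dync1i1, with a log2 fold change of 0.21 (SE 0.06) and no overlap, and Dync1h1, with 0.20 (SE 0.08) and overlap, were at an unadjusted p under 0.05 while Pafah1b1 was near 0, and 4 of the 8 genes of the complex were above 0.

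Of 6 synaptic targets, 4 were above 0, and Grin2b, an NMDA receptor subunit gene whose channel reelin modulates, had the smallest p. It was at 712, 678, 632 and 623 CPM with TSP1 and at 489, 595 and 623 CPM with PBS. TSP1 replicate 4 and PBS replicate 3 nearly met, and the log2 fold change was 0.22 (SE 0.09), with an edgeR adjusted p of 0.449. Creb1, a transcription factor gene among the same targets, had a log2 fold change of -0.10 (SE 0.06), and its groups did not overlap, with PBS above TSP1. Of 5 regulators of the Reln gene, 3 were above 0, and Dnmt1, the maintenance DNA methyltransferase, had a log2 fold change of 0.10 (SE 0.06) with an edgeR adjusted p of 0.632. With the length and GC trends removed, the log2 fold changes were 0.12 for Map1b, 0.12 for Grin2b, 0.15 for Dync1h1, 0.23 for Dync1i1, 0.24 for Adamts3 and 0.49 for Dcx, and Map1b, Grin2b and Dync1h1 were then no longer at an unadjusted p under 0.05 in edgeR (0.110, 0.111 and 0.0514). Grin2b, with 24842 bases of exon, moved most among these 6. In the other direction, Clu (-0.24), Selenop (-0.38) and Akt2 (-0.15) stayed at an unadjusted p under 0.05 in that fit. The synaptic targets Creb1 (-0.19) and Dlg4 (-0.19, from -0.12) were newly under it in edgeR (0.0139 and 0.0383), both lower with TSP1.

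Of 11 other lipoprotein receptor genes, 10 passed the filter on low counts and Lrp2 did not. Of these 10, 7 were above 0, with a median log2 fold change of 0.05, and 0 passed an adjusted p of 0.05 in edgeR's quasi-likelihood test. At an unadjusted p under 0.05 were 3 genes, beside 9.65% of all genes. Lrp1b, a large endocytic receptor gene, was at 86.0, 71.2, 74.6 and 85.2 CPM with TSP1 and at 60.9, 70.7 and 67.0 CPM with PBS. Its log2 fold change was 0.26 (SE 0.08) with an edgeR adjusted p of 0.322, and 0.15 with the length and GC trends removed. Lrp12 had a log2 fold change of 0.19 (SE 0.07), and Lrp5, a Wnt co-receptor gene, had -0.20 (SE 0.09). All 3 had groups that did not overlap, beside 10.1% of all genes, with Lrp5 in the opposite direction. The groups of Lrp5 nearly met, at 13.6 to 14.9737 CPM with TSP1 and 14.9765 to 17.3 CPM with PBS. Thbs1, the mouse gene for thrombospondin 1 itself, was at 1.32 to 2.69 CPM with TSP1 and 1.19 to 2.14 CPM with PBS, and overlapped.

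Cells known to make reelin were followed through their markers. The summed level of 7 general GABA neuron markers overlapped, at 700.0 to 873 CPM with TSP1 and 735 to 840.2 CPM with PBS, as did Gad1, the defining one, at 144 to 244 CPM and 162 to 192 CPM. Reln divided by that sum was 0.0995 to 0.119 with TSP1 and 0.0643 to 0.0860 with PBS, without overlap. Sums for neurogliaform and layer 1 interneurons were also alike in range, at 341 to 388 CPM with TSP1 and 341 to 389 CPM with PBS, where Lamp5, their defining marker, overlapped. Markers of Sst interneurons, of which 5 of 5 were below 0, summed to 312 to 337 CPM with TSP1 and 326 to 381 CPM with PBS. Sst itself was at 149.7 to 165 CPM with TSP1 and 175 to 202 CPM with PBS, opposite in direction to Reln, and Npy, chosen after its values were seen, was at 45.8 to 51.3 CPM with TSP1 and 56.0 to 61.1 CPM with PBS. Thus Reln over Sst was 0.491 to 0.572 with TSP1 and 0.302 to 0.361 with PBS. With the length and GC trends removed, the log2 fold change was -0.14 for Sst (from -0.21) and -0.19 for Npy (from -0.25). Sst has 721 bases of exon against 23738 for Reln.

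Single marker genes were not uniform. Reln over Gad2, the gene of a GABA-synthesizing enzyme, did overlap, at 0.653 to 0.910 with TSP1 and 0.550 to 0.725 with PBS. Ndnf, which marks a layer 1 interneuron type and was picked after its values were seen, was at 25.9, 32.9, 35.7 and 36.8 CPM with TSP1 and at 22.4, 9.87 and 19.0 CPM with PBS. Ndnf was higher in every TSP1 library, with an adjusted p of 0.401 in edgeR's quasi-likelihood test. It belongs to the same list of 7 neurogliaform and layer 1 markers as Npy, which was lower in every TSP1 library. Of these 7 markers, 3 were above 0 and 4 below. Reln over Ndnf overlapped, at 2.27 to 3.22 with TSP1 and 2.41 to 6.40 with PBS, and its mean was the lower one with TSP1 (2.66 against 4.12). The ratios of Reln to markers were chosen after the data were seen and are not corrected for length and GC trends. The part of any cell type in the Reln difference was not tested.

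Cajal-Retzius markers, 5 of which were measured, summed to 2.24 to 4.36 CPM with TSP1 and 1.95 to 2.08 CPM with PBS. These low sums did not overlap, though 1 of the markers was at 0 in some library. Only 3 of the 5 passed the filter on low counts, and the groups overlapped for each of those 3. Their defining marker Trp73 was at 0.396, 1.45, 0.274 and 1.74 CPM with TSP1 and at 0.621, 0.769 and 0.611 CPM with PBS, and overlapped. Reln is also abundant in mitral and tufted cells of the olfactory bulb. Their 5 markers were all above 0, with a median log2 fold change of 1.77, and summed to 20.6, 62.7, 44.2 and 48.1 CPM in TSP1 replicates 1 to 4 and 26.3, 12.6 and 16.4 CPM in PBS replicates 1 to 3. The sums overlapped because TSP1 replicate 1 lay below PBS replicate 1. The defining marker Tbx21 was at 0 in TSP1 replicate 1, at 1.09 to 1.48 CPM in the other TSP1 libraries and at 0.0591 to 0.245 CPM with PBS. Slc17a6, the only marker of the 5 whose groups did not overlap, was at 14.7, 13.1, 12.9 and 15.1 CPM with TSP1 and at 9.56, 8.46 and 10.3 CPM with PBS. It had a log2 fold change of 0.56 (SE 0.11) and was called by DESeq2 (adjusted p 0.0229) and edgeR's exact test (adjusted p 0.0112), but not by edgeR's quasi-likelihood test (adjusted p 0.123). Slc17a6 was thus high in all 4 TSP1 libraries, TSP1 replicate 1 included. In that library Eomes was at 0.0660 CPM, Cdhr1 at 3.89 CPM and Doc2g at 1.91 CPM, each inside its PBS range. In the other TSP1 libraries each of these lay above its PBS range. The part of these cells in the Reln difference was not tested.

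**Figure D4:**
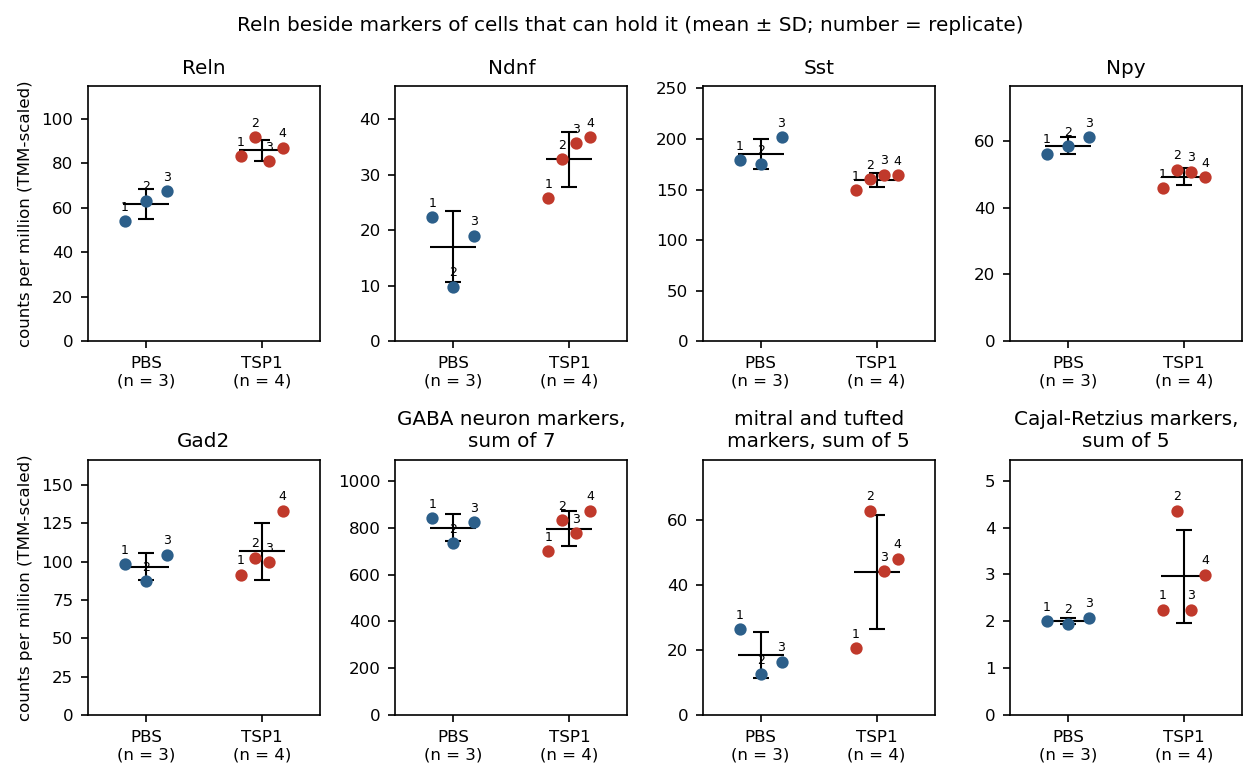
Level in CPM (vertical axes) by group (horizontal axes) of Reln, of the single genes Ndnf, Sst, Npy and Gad2, and of 3 marker sums, with a numbered point per replicate and the mean ± SD. Reln and Ndnf are higher and Sst and Npy lower in every TSP1 library. The marker sums of GABA neurons (700.0 to 873 against 735 to 840.2 CPM) and of mitral and tufted cells overlap between the groups. The low Cajal-Retzius sums (2.24 to 4.36 against 1.95 to 2.08 CPM) do not overlap.

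Other signs of makeup also differed between libraries. TSP1 replicate 4 stood apart in striatal projection neuron markers, at 328 CPM against 118 to 123 CPM in the other TSP1 libraries, and without it the log2 fold change of Reln was 0.48. Endothelial markers were lower with TSP1, at 126 to 159 CPM against 163 to 197 CPM, as were 8 ribosomal protein genes, at 1459 to 1808 CPM against 1842 to 1967 CPM. The defining markers were Drd1 for striatal neurons, at 27.0 CPM in TSP1 replicate 4, and Cldn5 for endothelium, at 24.7 to 30.0 CPM with TSP1 and 31.2 to 44.9 CPM with PBS. Excitatory cortical neuron markers were abundant in every library of both groups, with Slc17a7 at 1302 to 1608 CPM. All 5 microglia markers were below 0, and their sums barely overlapped, at 272 to 342 CPM with TSP1 and 340.4 to 387 CPM with PBS. C1qa, a complement gene of microglia, had a log2 fold change of -0.52 and Vip, an interneuron marker, also had -0.52. Neither overlapped between the groups, and DESeq2 and the exact test called both. Sums of Pvalb and Vip interneuron markers overlapped, at 61.3 to 76.3 CPM and 74.8 to 82.1 CPM. Oligodendrocyte sums overlapped too, with TSP1 replicate 4 at 7613 CPM, the other TSP1 libraries at 2772 to 3871 CPM and the PBS libraries at 4143 to 5147 CPM. The part of any of these in the members' values was not tested. The libraries are numbered 1 to 4 for TSP1 and 8, 11 and 12 for PBS, and the labels do not say what these numbers record. If they follow an order of handling, its effect and that of the treatment cannot be told apart.

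The genes whose levels followed Reln most closely over the 7 libraries were ranked by the root mean square difference of their log2 CPM, each centred on its own mean. The 10 nearest of 14294 genes were Slc1a5 (0.053), Zfp109 (0.058), Zbtb37 (0.073), Has1 (0.087), Pbld2 (0.088), Thsd7a (0.090), Robo2 (0.105), Ccdc15 (0.108), Ntng1 (0.109) and Crybg3 (0.116), against a median of 0.293. Slc1a5 encodes a neutral amino acid transporter, Has1 a hyaluronan synthase, Robo2 a Slit receptor and Ntng1 the membrane protein netrin-G1. Slc1a5, the nearest, was at 3.83, 4.09, 3.57 and 3.92 CPM with TSP1 and at 2.15, 2.78 and 2.87 CPM with PBS. It shares with Reln a low PBS replicate 1 and a high TSP1 replicate 2. Has1 (1.19 to 2.31 CPM) and Pbld2 (1.06 to 1.83 CPM) were as low or lower. At a like level, Thbs1 (1.32 to 2.69 CPM) had a counting error averaging 17.6% of the count. For genes this low, likeness to Reln in single libraries is not distinguished from counting error. Robo2, the most abundant of the 10, was at 97.4, 112, 88.9 and 100.3 CPM with TSP1 and at 72.8, 85.0 and 86.2 CPM with PBS.

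All 10 had groups that did not overlap, which the measure favours because Reln's own groups do not. When each group was centred on its own mean, only 1 of the 10 stayed among the nearest 10. By Pearson's correlation 4 of the 10 were shared, and without PBS replicate 1 the list shared 3. Among the members, Vldlr was nearest to Reln, at 0.173, followed by Pafah1b1 at 0.236. The remaining members lay between 0.261 and 0.294, close to the median gene.

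**Figure D5:**
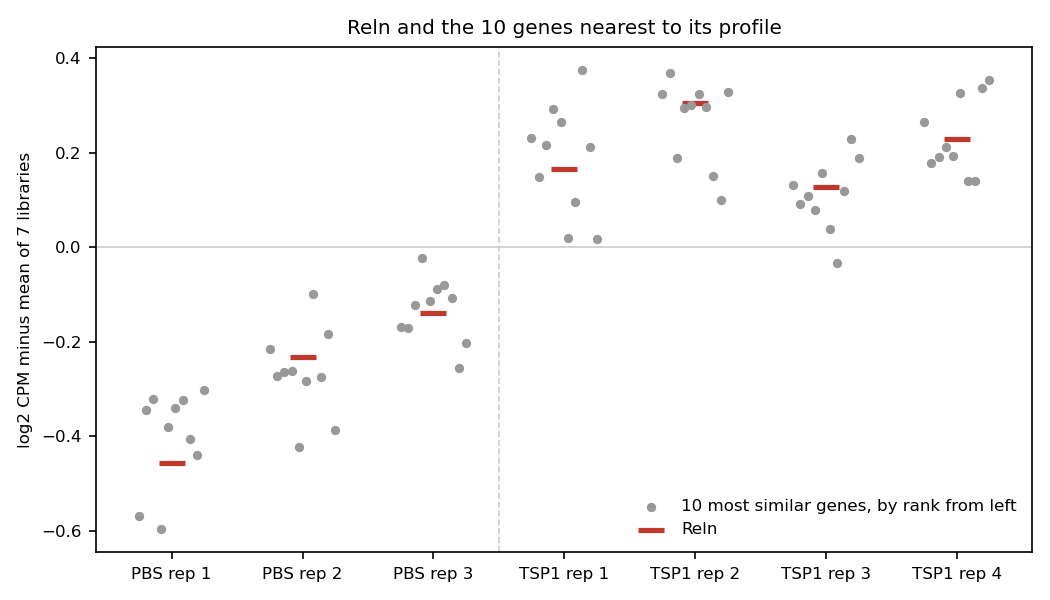
Log2 CPM minus the mean of the 7 libraries (vertical axis) in each library (horizontal axis) for Reln (red bars) and the 10 genes nearest to it (grey points, in order of rank from the left). Each gene lies higher in all 4 TSP1 libraries than in any of the 3 PBS libraries, and Reln is lowest in PBS replicate 1.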

How the data were processed

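Per the labels' protocols, 1.3 µg of total RNA per mouse went into an mRNA library kit. The authors deposited a table of counts per gene, whole numbers judged raw from the values, and the submitters' processing notes name GRCm38 and mm10 as builds. No source used here names the aligner, the counting method or the use of strand. Of 25467 gene identifiers, 25375 matched GENCODE M21.

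Counts were fitted with edgeR 4.0.16 (R 4.3.3; filterByExpr, TMM, robust quasi-likelihood test) over all 7 libraries, with Benjamini-Hochberg adjustment over 17211 genes, and a gene was called at an adjusted p under 0.05. SE is the log2 fold change divided by the root of its F statistic. Alternatives used DESeq2 1.42.0, limma 3.58.1 (voom), edgeR's exact test, other scalings and filters, length and GC splines of 4 degrees of freedom, a replicate block, and leaving out each library. Likeness used log2 CPM with a prior count of 2. The main quasi-likelihood fit was also run on simulated counts, and the alternatives were not.

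The named genes were all 8 members, the gene of smallest p in each role of the pathway list and among other lipoprotein receptors, and the 10 genes most like Reln, leaving out predicted genes and clone names. The defining marker, first in its list, was named for the marker lists described. Other genes named with values (Clu, Akt2, Dync1h1, Dync1i1, Creb1, Dlg4, Lrp12, Lrp5, Thbs1, Ndnf, Npy, Gad2, Slc17a6, Eomes, Cdhr1, Doc2g, Aldoc, S100b, C1qa, Vip) were chosen after their values were seen. Members and lists were chosen with earlier results of these data known. Some results are not reported here: a gene of the receptor list and a gene of the pathway list are left out of the counts of those lists and of the genes named. Replicates are different mice, and no batch is labelled.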

Additional observations from a re-analysis of the deposited data

Results flagged for a closer look

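In a group of 4 libraries, a sample was singled out when its gap to the nearest other library took up more of the group's range than Dixon's critical value allows, which chance gives in about 1 of 20 groups. Of 43 values examined in the TSP1 group, 2 met this, about as many as that rate gives by chance. Ccdc15, among the genes most like Reln, was at 3.03 CPM in TSP1 replicate 1 against 2.52 to 2.58 CPM in the other TSP1 libraries. Striatal projection neuron markers summed to 328 CPM in TSP1 replicate 4 against 118 to 123 CPM in the others.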

How the results depend on the processing

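Over 16 alternatives for each of the 8 members, 124 of 128 recomputed log2 fold changes moved by less than 1 SD. With length and GC offsets, Vldlr was at 0.10 and Pafah1b1 at -0.0172, and with those offsets and the replicate block they were at 0.10 and -0.0192. The sign of Pafah1b1 is not distinguished from 0.

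The number of genes called over all genes was 0 in the edgeR quasi-likelihood test (1661 at an unadjusted p under 0.05), 87 with DESeq2, 85 with the exact test, 19 without a low-count filter, and 0 to 9 with a library left out, 9 without PBS replicate 3. DESeq2 gave no adjusted p for 9398 genes. Pathway list genes past the adjusted threshold numbered 0, but 3 with DESeq2, 1 with the exact test, 1 without the filter, and 0 to 1 with a library left out. The 9 pathway genes at an unadjusted p under 0.05 became 5 to 12 with a library left out, 5 without TSP1 replicate 1. The 3 other lipoprotein receptors became 1 with the replicate block plus length and GC offsets and 1 to 3 with a library left out, 1 without PBS replicate 1 or TSP1 replicate 3. Of the 10 genes most like Reln, 4 were shared by Pearson's correlation and 3 to 7 with a library left out, 3 without PBS replicate 1, 4 without TSP1 replicate 2 and 6 without TSP1 replicate 4. The cause of these changes was not tested.

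Each library's deviations from its group mean were correlated over genes between TSP1 and PBS libraries. Libraries with the same replicate number gave -0.261, -0.0331 and 0.0103 for numbers 1 to 3. Those with different numbers gave -0.121 to 0.218. With so few libraries, these values cannot show whether the numbers pair the libraries. With the replicate block, 0 genes were called, and the log2 fold change was 0.48 for Reln and 8 pathway genes were at an unadjusted p under 0.05. TSP1 replicate 4 has no PBS library of its number, so it adds nothing to the group difference in that fit. The depth limits precision most for low genes such as Thbs1, with 20 to 49 counts a library.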
